A study of Mus musculus with 3 samples.

Results

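The Eryth cluster is a small group of erythroid progenitor cells in mouse bone marrow, and its members are all cells to which the authors' deposited cluster table gives the name Eryth. It held 84 of 11132 cells, 41 of 4336 in the female and 43 of 6796 in the male library. The series consists of wild-type C57BL/6 bone marrow cells named modified GMP in the labels (GMP is short for granulocyte-monocyte progenitor). Cells from crushed hindlimb bones were enriched on CD117 (Kit) microbeads, sorted with fluorescent antibodies, and measured by CITE-seq, which counts transcripts and antibody-bound DNA tags in the same cell. There was 1 female and 1 male mRNA library and 1 antibody library pooled from both sexes, and all cells shared the genotype. No treatment or age is named. How many mice went into a library is not given. The p-values here therefore measure only how differences between clusters varied over these 2 libraries, and not a spread between mice. Eryth was compared with Meg, the cluster rich in megakaryocyte and platelet genes (86 female and 85 male cells), with HSCP-2, rich in stem and multipotent cell genes (256 and 290 cells), and with Multi-Lin, which holds genes of several lineages (686 and 1066 cells). The labels do not spell out the cluster names.

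Erythroid progenitors arise from multipotent cells through a stage with both erythroid and megakaryocytic potential. Gata1 and Klf1 are the transcription factors that drive the red cell programme, and signalling through the erythropoietin receptor Epor and Stat5 keeps the cells alive and dividing. Haem enzymes, iron handling, blood group proteins and finally globins come up as the cells mature, and Kit is lost on the way.

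Its markers match the name. Car1 and Car2, both carbonic anhydrases, and Klf1 together reached 3918 and 3747 CPM (a gene's UMIs in the sum of a cluster and library, scaled to a fixed total) in female and male Eryth, against 692 and 649.8 in Meg, 1011 and 1094 in HSCP-2 and 163 and 175 in Multi-Lin. Throughout, paired values are the female library first and the male second. All 3 markers were detected in 34 of 41 and 38 of 43 cells, and at least 2 of them in every cell. Beside the erythroid sum, most other lineages gave low sums in Eryth. The 5 megakaryocytic markers summed to 69 and 62.7 CPM, against 6121 and 4189 in Meg. The stem and multipotent markers summed to 41.4 and 33.3 CPM, against 684 and 749.7 in HSCP-2, with Flt3 and Hlf at 0 UMIs in Eryth. The macrophage markers summed to 13.8 and 19.6 CPM and were all detected. Their sums were 9.77 and 11 in Meg, 16.2 and 29.4 in HSCP-2 and 7.59 and 9.1 in Multi-Lin. The mast and basophil markers summed to 72.4 and 72.5 CPM, all detected, against 41.9 and 56.8 in Meg, 112 and 171 in HSCP-2 and 2042 and 2588 in Multi-Lin. The lymphoid markers summed to 13.8 and 13.7 CPM, all of it Cd79b. Granulocytic markers were not low: Mpo, Elane, Prtn3 and Ctsg summed to 2273 and 2029 CPM in Eryth, 2281 and 2045 in Meg, 3018 and 2705 in HSCP-2 and 10356 and 11007 in Multi-Lin, and their part in the results below was not tested.

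Eryth cells held a median of 12993 and 10904 UMIs, against 15947 and 12799 in Meg, 8299 and 7141 in HSCP-2 and 17138 and 13805 in Multi-Lin. The Eryth sums held 579843 and 510491 UMIs. A cell barcode occurred in both libraries 45 times in the series, never in an Eryth cell. Eryth was 0.946% of the female and 0.633% of the male cells (exact 95% binomial intervals 0.679% to 1.28% and 0.458% to 0.851%, counting error only), the fifth smallest of 17 clusters among female cells and the fourth among male cells. With 1 library per sex and a sort before loading, these shares cannot be read as shares of marrow.

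**Figure D1:**
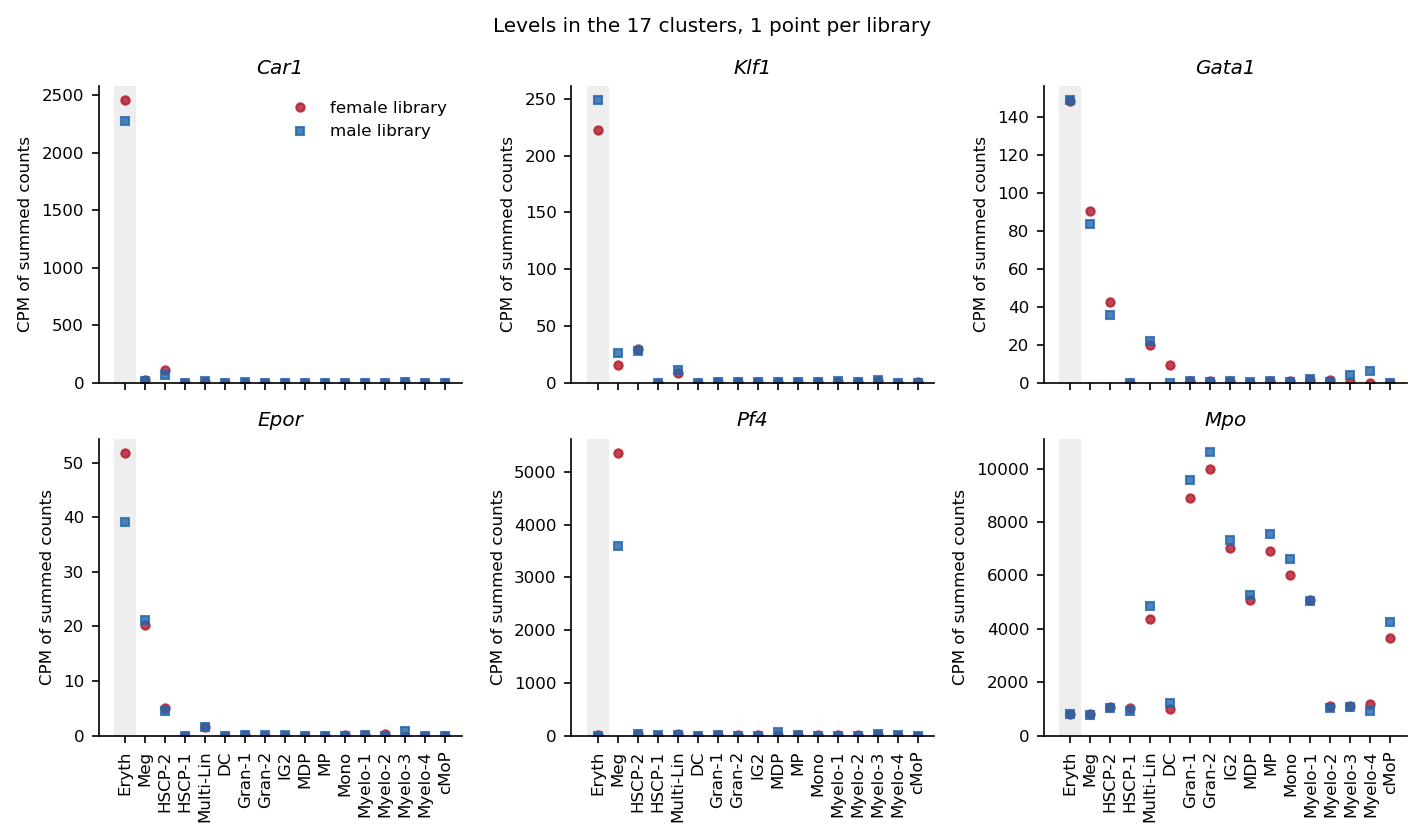
Levels of 6 genes in the 17 clusters, as CPM of the UMI counts summed per cluster (vertical axes, linear, from 0), with 1 point per library and Eryth shaded at the left. Car1, Klf1, Gata1 and Epor were highest in Eryth in both libraries, Pf4 in Meg, and Mpo in granulocytic clusters.

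Car1 set the cluster apart more than any other gene with at least 50 CPM in Eryth in both libraries. It had 2459 and 2278 CPM in Eryth, against 24.4 and 16.1 in Meg, 113 and 65.1 in HSCP-2 and 8.57 and 13.2 in Multi-Lin, and its Eryth level was 21.8- and 35-fold that of the next highest of all clusters, HSCP-2. Of 2246 genes with at least 50 CPM in Eryth in both libraries, 237 were highest in Eryth in both, and 20 of those by over 2-fold. These transcripts may have been used to form the cluster, by a method that the labels do not state, so such levels describe it and do not test it. After Car1 came Ces2g, a carboxylesterase, at 18.1- and 17.5-fold the next cluster, and the metallothionein Mt2 at 16.4- and 15-fold. Klf1 stood 7.45- and 8.84-fold above the next cluster and Tspo2, an erythroid relative of the mitochondrial translocator protein, 7.14- and 8.94-fold. The long non-coding RNA Gm15915 (5.85- and 10.8-fold), the pseudokinase gene Trib2 (5.83- and 6.22-fold) and the sodium pump subunit gene Atp1b2 (5.33- and 6.91-fold) followed. Epdr1, Blvrb (biliverdin reductase B), Optn (optineurin, an autophagy receptor) and the water channel gene Aqp1 completed the leading 12, with ratios of 5.09- and 4.91-fold, 4.33- and 5.22-fold, 4.2- and 5.08-fold and 3.96- and 3.96-fold. The next cluster was HSCP-2 or Meg in both libraries for each except Mt2 (Gran-2 in both) and Optn (Myelo-2 in the male library). All 12 were also highest in Eryth when each cell had equal weight and when cells with a UMI were counted after thinning each cell to 5000 UMIs, which left out 0 female and 2 male Eryth cells with fewer.

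Most cells with high Car1 counts were Eryth cells. At least 10 Car1 UMIs, a minimum chosen after the values were seen, were found in 36 female and 33 male Eryth cells, and in 9 and 2 HSCP-2 cells, 1 and 0 Meg cells, and 2 and 6 Multi-Lin cells. The series held 95 such cells in all, 69 of them Eryth. At 5 or more UMIs it held 136 cells, with 78 in Eryth and 37 in HSCP-2, whose cells held fewer UMIs. Klf1 was detected in 35 of 41 and 39 of 43 Eryth cells, 17 of 86 and 18 of 85 Meg, 40 of 256 and 39 of 290 HSCP-2 and 66 of 686 and 105 of 1066 Multi-Lin cells. In Gran-1, a granulocytic cluster that should lack Klf1 and whose cells had medians of 27602 and 22359 UMIs, it was detected in 9 of 832 and 22 of 1541 cells.

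Differences between clusters were tested on summed UMI counts with edgeR's quasi-likelihood test, in 1 fit of the 8 sums with the library as a block. Of 9413 genes tested, 581 were higher in Eryth than in Meg and 546 lower (6.17% and 5.8% of the genes tested, 12% together) at a Benjamini-Hochberg adjusted p under 0.05. Against HSCP-2 the counts were 1007 higher and 1125 lower (10.7% and 12%, 22.6% together). Against Multi-Lin they were 680 higher and 955 lower (7.22% and 10.1%, 17.4% together). The median log2 fold change over all genes tested was -0.02, -0.03 and -0.01 in the 3 comparisons. Counts and medians of the gene lists below are to be read beside these shares and medians. They share the Eryth sums, so they are given side by side and not as repeats of each other. Fold changes are scaled by TMM, while CPM values are plain shares of the summed UMIs. The value after ± is the size of the log2 fold change divided by the square root of its test's F value. It is not a fitted standard error, and for genes of few UMIs it can be smaller than counting error. A lower level in these sums can mean fewer cells with the transcript or less of it per cell, which the sums alone cannot tell apart. Shares of cells with a UMI are given for some genes only, and they depend on the depth of the cells.

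Among erythroid transcription factors, Klf1 differed most. Klf1 (chr8:84901982-84905291), the factor that switches on adult red cell genes, had 222 and 249 CPM in Eryth, against 15.4 and 26.3 in Meg, 29.9 and 28.2 in HSCP-2 and 8.82 and 10.9 in Multi-Lin. Its log2 fold changes were 3.63 ± 0.19 against Meg, 3.11 ± 0.16 against HSCP-2 and 4.56 ± 0.16 against Multi-Lin (largest edgeR adjusted p = 2.11e-18). Eryth was above each of the others in both libraries. Gata1 (chrX:7959260-7976663), the master factor of the erythroid and megakaryocyte lineages, had 148 and 149 CPM in Eryth, against 90.7 and 83.9 in Meg, 42.7 and 35.7 in HSCP-2 and 19.8 and 22.2 in Multi-Lin. That gave log2 fold changes of 0.87 ± 0.16 against Meg, 2.01 ± 0.17 against HSCP-2 and 2.8 ± 0.16 against Multi-Lin (largest edgeR adjusted p = 1.44e-04). No other value reached those of Eryth. The difference was smallest against Meg, the related lineage. Gata2, which precedes Gata1 in progenitors, had 228 and 209.6 CPM in Eryth, against 205 and 166 in Meg, 185 and 156 in HSCP-2 and 115 and 121 in Multi-Lin. The Eryth values stood above all others. The difference passed against HSCP-2 (0.45, edgeR adjusted p = 0.00598) and Multi-Lin (0.88, edgeR adjusted p = 2.22e-07) and not against Meg (0.33, edgeR adjusted p = 0.093). Bcl11a, known as a repressor of fetal globin, had 191 and 163 CPM in Eryth, against 82.4 and 78.8 in Meg, 138 and 114 in HSCP-2 and 53.3 and 46.9 in Multi-Lin. This gave log2 fold changes of 1.25 ± 0.15 against Meg, 0.58 ± 0.13 against HSCP-2 and 1.81 ± 0.13 against Multi-Lin (largest edgeR adjusted p = 7.00e-04). Eryth had the higher values throughout. Beside the shares of all genes given above, 6 of 22 factors tested were higher and 1 lower against Meg, 7 and 1 against HSCP-2, and 13 and 0 against Multi-Lin. Bcl11a, Gata1, Gfi1b, Klf1 and Ldb1, the last a scaffold of the Gata1 complex, were higher in all 3 comparisons. The 1 lower factor was Lmo2, another member of that complex, with 355 and 294 CPM in Eryth, against 586 and 512 in Meg and 688 and 692 in HSCP-2. It differed by -0.65 ± 0.10 against Meg and -1.0 ± 0.09 against HSCP-2 (largest edgeR adjusted p = 2.27e-06). The list's median log2 fold changes were 0.28, 0.36 and 1.14 against Meg, HSCP-2 and Multi-Lin. After thinning to 5000 UMIs per cell, no call remained for Gata1 and Gfi1b against Meg, Gata2 against HSCP-2, and Ldb1 against Meg and HSCP-2. Other alternatives ended calls of Gfi1b against Meg (in 3 or more other alternatives).

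The erythropoietin receptor was higher in Eryth than in each of the 3 clusters, whereas several of the receptor's downstream genes were lower than in HSCP-2. Epor (chr9:21958897-21963576) had 51.7 and 39.2 CPM in Eryth, against 20.2 and 21.2 in Meg, 5.12 and 4.62 in HSCP-2 and 1.63 and 1.68 in Multi-Lin. Log2 fold changes were 1.25 ± 0.32 against Meg, 3.31 ± 0.37 against HSCP-2 and 4.74 ± 0.36 against Multi-Lin (largest edgeR adjusted p = 0.00469). Neither library of the others came up to Eryth. It was detected in 22 of 41 and 16 of 43 Eryth cells, and in 2 of 832 and 3 of 1541 Gran-1 cells. Tfr2, an iron sensor that binds Epor, had 82.8 and 49 CPM in Eryth, against 25.8 and 27.1 in Meg, 39.2 and 36.6 in HSCP-2 and 30.8 and 29.9 in Multi-Lin. Its log2 fold changes were 1.45 ± 0.26 against Meg, 0.90 ± 0.22 against HSCP-2 and 1.12 ± 0.21 against Multi-Lin (largest edgeR adjusted p = 0.00207). Both Eryth values lay above every other. Stat5a, the signal carrier, passed against Multi-Lin only (log2 0.79 ± 0.23 against Multi-Lin, edgeR adjusted p = 0.0119). Pim1, a kinase gene induced by Stat5, had 55.2 and 52.9 CPM in Eryth, against 37 and 45.7 in Meg, 252 and 160.1 in HSCP-2 and 105 and 77.9 in Multi-Lin. Its log2 fold changes were -1.85 ± 0.18 against HSCP-2 and -0.78 ± 0.20 against Multi-Lin (largest edgeR adjusted p = 0.00328). The Pim1 values of Eryth were above those of Meg and below those of HSCP-2 and Multi-Lin. Cish, Socs2 and Socs3, feedback inhibitors of Stat5 signalling, were also lower than in HSCP-2, as was Btg1. Btg1 was in turn higher than in Meg (log2 0.75 ± 0.21 against Meg, edgeR adjusted p = 0.0144). Bcl2l1, the survival gene that encodes Bcl-xL, had 0 UMIs in all Eryth cells, against 47 UMIs in Meg, 55 in HSCP-2 and 232 in Multi-Lin. With a floor of 3 counts over both libraries it was at least 6.54-fold lower than in Meg and at least 4.23-fold lower than in HSCP-2. Of 15 members tested, 3 were higher and 1 lower against Meg, 2 and 6 against HSCP-2, and 3 and 2 against Multi-Lin, with median log2 fold changes of -0.18, -0.64 and 0.15. Calls that ended when cells were thinned to 5000 UMIs were those of Epor and Btg1 against Meg, Tfr2 and Bcl2l1 against Meg, HSCP-2 and Multi-Lin, Pim1 against Multi-Lin, and Socs2 against HSCP-2. Other alternatives lost the calls of Stat5a against Multi-Lin and Socs2 against HSCP-2 (with DESeq2), Cish against HSCP-2 (in 3 or more other alternatives), Pim1 against Multi-Lin (without the library term and without the 10% of cells with the most UMIs), and Btg1 against HSCP-2 (without the 10% of cells with the most UMIs).

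Other receptor genes differed between Eryth and the 3 clusters in both directions. Kit, the receptor for stem cell factor and the antigen used for enrichment, had 69 and 62.7 CPM in Eryth, against 39.1 and 46.6 in Meg, 96 and 89.1 in HSCP-2 and 54.5 and 47 in Multi-Lin. It was higher than in Meg (log2 0.74 ± 0.23 against Meg, edgeR adjusted p = 0.0258), and did not pass against HSCP-2 (-0.40, edgeR adjusted p = 0.122) or Multi-Lin (0.37, edgeR adjusted p = 0.199). Ifngr1, an interferon gamma receptor chain, had 379 and 259 CPM in Eryth, against 82.4 and 89 in Meg, 169 and 139.5 in HSCP-2 and 108 and 113 in Multi-Lin. In the fit it differed by log2 fold changes of 2.02 ± 0.15 against Meg, 1.15 ± 0.12 against HSCP-2 and 1.52 ± 0.12 against Multi-Lin (largest edgeR adjusted p = 1.10e-09). No other value reached those of Eryth. Among all 17 clusters, however, Ifngr1 was at similar levels in granulocytic ones, with 351 and 332 CPM in Gran-2, and male Eryth was the fourth, behind DC, Gran-2 and Gran-1. Il1rl1, the receptor for interleukin 33, had 24.1 and 21.5 CPM in Eryth, against 0 and 4.24 in Meg, 4.69 and 7.14 in HSCP-2 and 6.29 and 6.84 in Multi-Lin. The fitted log2 fold changes were 3.66 ± 0.64 against Meg, 2.04 ± 0.47 against HSCP-2 and 1.8 ± 0.40 against Multi-Lin (largest edgeR adjusted p = 9.15e-04). The Eryth values stood above all others. Igf1r, the receptor for insulin-like growth factor 1, was also higher than in all 3 clusters, by 0.88 ± 0.23 against Meg, 0.62 ± 0.20 against HSCP-2 and 0.72 ± 0.19 against Multi-Lin (largest edgeR adjusted p = 0.022). Il17ra passed against Meg and Multi-Lin (log2 1.06 ± 0.26 against Meg and 1.11 ± 0.22 against Multi-Lin, largest edgeR adjusted p = 0.0029). Of 21 cytokine receptors tested, 7 were higher and 1 lower against Meg, 4 and 9 against HSCP-2, and 5 and 6 against Multi-Lin, with median log2 fold changes of 0.23, -0.68 and -0.65. Csf2rb, Csf3r, Flt3, Il3ra and Il6ra, receptors of myeloid and multipotent cells, were lower than in both HSCP-2 and Multi-Lin. Not past the threshold after thinning to 5000 UMIs per cell were Kit and Il17ra against Meg, Il1rl1 and Igf1r against Meg, HSCP-2 and Multi-Lin, Csf2rb against HSCP-2, and Il6ra against HSCP-2 and Multi-Lin. Among other alternatives, calls ended for Kit against Meg, and Igf1r and Il6ra against HSCP-2 (with DESeq2), and Il6ra against Multi-Lin (with DESeq2 and without the 10% of cells with the most UMIs). Il1rl1 had 0 UMIs in female Meg, and the male library alone gave 2.42.

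Early erythroid progenitor genes were the list with the largest share higher in Eryth. Of 22 tested, 20 were higher and 0 lower against Meg, 19 and 1 against HSCP-2, and 20 and 0 against Multi-Lin, with median log2 fold changes of 2.32, 3.12 and 4.21. Members that pass the filter on low counts only through Eryth had to differ, so these counts describe the list and do not support it. Cldn13 and Tmem56 were not tested. The 1 lower member, against HSCP-2, was Cd24a. Car1 (chr3:14766214-14808365) had log2 fold changes of 6.95 ± 0.15 against Meg, 4.82 ± 0.11 against HSCP-2 and 7.71 ± 0.12 against Multi-Lin (largest edgeR adjusted p = 1.05e-31). Its neighbour Car2 (chr3:14886269-14900770) had 1237 and 1220.4 CPM in Eryth, against 653 and 607 in Meg, 868 and 1001 in HSCP-2 and 146 and 151 in Multi-Lin. Its differences were smaller, at 1.06 ± 0.08 against Meg, 0.48 ± 0.07 against HSCP-2 and 3.04 ± 0.08 against Multi-Lin (largest edgeR adjusted p = 1.54e-06). Eryth had the higher values throughout. HSCP-2 came nearest. Apoe, the apolipoprotein gene, had 1559 and 1397 CPM in Eryth, against 719.6 and 757 in Meg, 544 and 569 in HSCP-2 and 378 and 499 in Multi-Lin. On the log2 scale Eryth differed by 1.11 ± 0.09 against Meg, 1.5 ± 0.09 against HSCP-2 and 1.75 ± 0.08 against Multi-Lin (largest edgeR adjusted p = 2.59e-13). Neither library of the others came up to Eryth. Prdx2, a peroxiredoxin abundant in red cells, was higher by 0.67 ± 0.09 against Meg, 0.28 ± 0.08 against HSCP-2 and 0.42 ± 0.08 against Multi-Lin (largest edgeR adjusted p = 0.0129), the smallest of the named members' differences from HSCP-2. Tspo2, listed here with late erythroblast genes, had 143 and 139 CPM in Eryth, against 1.4 and 0.847 in Meg, 20 and 15.5 in HSCP-2 and 1.8 and 1.81 in Multi-Lin. Eryth thus differed by log2 fold changes of 7.02 ± 0.38 against Meg, 3.07 ± 0.21 against HSCP-2 and 6.25 ± 0.23 against Multi-Lin (largest edgeR adjusted p = 2.39e-15). Both Eryth values lay above every other. Ces2g had 152 and 104 CPM in Eryth, against 8.38 and 5.93 in Meg, 6.82 and 3.36 in HSCP-2 and 1.71 and 1.23 in Multi-Lin. Aqp1 had 335 and 292 CPM in Eryth, against 84.5 and 73.7 in Meg, 33.7 and 21 in HSCP-2 and 2.37 and 4.32 in Multi-Lin. Both genes were higher in all 3 comparisons. Thinning to 5000 UMIs per cell ended the calls of Prdx2 against Meg, HSCP-2 and Multi-Lin. Under other alternatives, no call remained for Car2 against HSCP-2 (without the 10% of cells with the most UMIs), and Prdx2 against HSCP-2 (without the 10% of cells with the most UMIs and without the library term). Without the 10% of cells with the most UMIs the log2 fold change was 6.36 for Car1 against Meg.

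The blood group genes Ermap and Rhd, and Sphk1, had few UMIs, which among the 4 clusters were nearly all in Eryth, unlike those of Kel. The red cell membrane and blood group list as a whole was at similar levels in each, with a summed level of 1233 and 1138 CPM in Eryth, against 1131 and 1024 in Meg, 1034 and 1021 in HSCP-2 and 1044 and 967 in Multi-Lin. Ermap, which carries the Scianna antigens in human red cells, had 31 and 21 UMIs in Eryth, against 0 in Meg and 1 in HSCP-2. With a floor of 3 counts it was at least 41.5-fold higher in Eryth than in Meg. It was detected in 14 of 41 and 11 of 43 Eryth cells, in 1 of 686 and 1 of 1066 Multi-Lin cells and in 1 of 832 and 1 of 1541 Gran-1 cells. Rhd, the mouse Rh blood group gene, had 31 and 29.4 CPM in Eryth, against 0 and 0 in Meg, 0 and 0.42 in HSCP-2 and 0.163 and 0.0645 in Multi-Lin, at least 26.4-fold higher than in Meg. The kinase gene Sphk1, which makes sphingosine 1-phosphate, had 32.8 and 19.6 CPM in Eryth, against 0 and 0 in Meg, 0 and 0 in HSCP-2 and 0.163 and 0 in Multi-Lin, at least 23.2-fold higher than in Meg. Ermap, Rhd and Sphk1 were called higher against all 3 clusters, but they entered the fit through Eryth alone and had to differ, so these calls support nothing. Kel, the Kell antigen gene, had 15.5 and 15.7 CPM in Eryth, against 0.698 and 0 in Meg, 3.41 and 2.52 in HSCP-2 and 0.572 and 1.1 in Multi-Lin. Its log2 fold changes were 5.34 ± 1.1 against Meg, 2.47 ± 0.67 against HSCP-2 and 4.14 ± 0.68 against Multi-Lin (largest edgeR adjusted p = 0.00504). Kel also entered the fit through Eryth alone and had to differ, so its calls support nothing either. Eryth was above each of the others in both libraries. Stom (stomatin) had 60.4 and 47 CPM in Eryth, against 22.3 and 16.9 in Meg, 16.6 and 13 in HSCP-2 and 21.6 and 23.7 in Multi-Lin. This gave log2 fold changes of 1.55 ± 0.29 against Meg, 1.95 ± 0.28 against HSCP-2 and 1.24 ± 0.23 against Multi-Lin (largest edgeR adjusted p = 9.32e-05). No other value reached those of Eryth. Icam4, the Landsteiner-Wiener antigen gene, was higher than in HSCP-2 and Multi-Lin (log2 1.51 ± 0.26 against HSCP-2 and 1.54 ± 0.24 against Multi-Lin, largest edgeR adjusted p = 2.35e-05) and did not pass against Meg (edgeR adjusted p = 0.115). Of 17 members of the red cell membrane list tested, 7 were higher and 1 lower against Meg, 7 and 2 against HSCP-2, and 9 and 1 against Multi-Lin, with median log2 fold changes of 0.14, 0.42 and 0.79. Rhd and Kel, which entered through Eryth alone, are among the higher members. The glucose transporter gene Slc2a1 was lower in all 3. Slc4a1, Sptb, Ank1 and Epb42, which build the mature red cell membrane, were below the filter and not tested. Cd47 and Bsg did not pass in any comparison, with 448 and 402 CPM in Eryth, against 521 and 434 in Meg, 471 and 449.7 in HSCP-2 and 524 and 459.8 in Multi-Lin for Cd47. After thinning to 5000 UMIs per cell, no call remained for Icam4 against HSCP-2 and Multi-Lin, and Slc2a1 against Meg, HSCP-2 and Multi-Lin. Other alternatives ended calls of Sphk1 against Meg, HSCP-2 and Multi-Lin (with DESeq2), Slc2a1 against Meg and Multi-Lin (with DESeq2 and without the 10% of cells with the most UMIs), and Slc2a1 against HSCP-2 (in 3 or more other alternatives). In the female library alone and the male alone the log2 fold change was 4.78 and 3.79 for Kel against Multi-Lin. Kel had 0 UMIs in male Meg, and the female library alone gave 4.61.

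The 250 bases before the start given in the RefSeq promoter table for Klf1, Epor and Ermap are shown because the 3 genes were higher in Eryth in every comparison and their promoters hold the core that Gata factors bind (GATAA) as well as the core that Klf factors bind (CACCC). The genes, the window and the 5-base motifs were chosen after the sequences had been read, so the matches are descriptions. The last 18 bases shown for Ermap lie inside the gene's RefSeq span, which begins further upstream. Sequences are from RefSeq (GRCm38.p6), 5′ to 3′ on the gene's strand, with both motifs in capitals, also where they lie on the other strand (as TTATC for the first motif and as GGGTG for the second).
Klf1 (chr8:84901732-84901981, plus strand): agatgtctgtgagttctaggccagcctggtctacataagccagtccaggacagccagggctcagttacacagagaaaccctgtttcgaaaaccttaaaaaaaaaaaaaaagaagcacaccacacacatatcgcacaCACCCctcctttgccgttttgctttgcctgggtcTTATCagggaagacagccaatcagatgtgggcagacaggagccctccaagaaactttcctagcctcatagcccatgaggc
Epor (chr9:21963577-21963826, minus strand): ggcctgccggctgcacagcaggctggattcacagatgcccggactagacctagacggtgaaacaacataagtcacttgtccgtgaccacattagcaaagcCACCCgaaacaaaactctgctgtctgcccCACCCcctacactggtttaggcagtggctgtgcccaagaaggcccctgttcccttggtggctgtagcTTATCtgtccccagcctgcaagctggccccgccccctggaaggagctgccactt
Ermap (chr4:119189996-119190245, minus strand): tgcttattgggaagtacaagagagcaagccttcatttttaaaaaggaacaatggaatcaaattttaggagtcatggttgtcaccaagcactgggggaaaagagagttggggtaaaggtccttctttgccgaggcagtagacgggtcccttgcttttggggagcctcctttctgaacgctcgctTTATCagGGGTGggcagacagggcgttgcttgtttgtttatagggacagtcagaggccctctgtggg
GATAA on either strand was found upstream of 20% of the 10 matched leading genes, 23.5% of the 17 matched early erythroid genes and 25.5% of all 27025 genes in the table. CACCC was found in 50%, 76.5% and 54.5%, and both in 10%, 17.6% and 11.5%. The GATAA shares were no higher than that over all genes.

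Several enzymes of haem synthesis were higher in Eryth, while the erythroid first enzyme was not detected. Alad, the second enzyme, had 133 and 190.0 CPM in Eryth, against 69.1 and 72 in Meg, 63.1 and 60.1 in HSCP-2 and 60.3 and 58.6 in Multi-Lin. Log2 fold changes were 1.28 ± 0.17 against Meg, 1.46 ± 0.16 against HSCP-2 and 1.42 ± 0.14 against Multi-Lin (largest edgeR adjusted p = 1.85e-07). The Eryth values stood above all others. Urod, which acts later, had 174 and 131 CPM in Eryth, against 91.4 and 84.7 in Meg, 73.4 and 63 in HSCP-2 and 52.5 and 56.4 in Multi-Lin. In the fit it differed by log2 fold changes of 0.91 ± 0.17 against Meg, 1.26 ± 0.16 against HSCP-2 and 1.48 ± 0.15 against Multi-Lin (largest edgeR adjusted p = 9.27e-05). Eryth had the higher values throughout. Tmem14c, a mitochondrial porphyrin transporter, passed against HSCP-2 and Multi-Lin (log2 0.96 ± 0.11 against HSCP-2 and 0.30 ± 0.10 against Multi-Lin, largest edgeR adjusted p = 0.0276). Cpox and the mitochondrial glycine carrier Slc25a38 were higher in all 3 comparisons. Alas2, the first enzyme in red cells, had 0 UMIs in Eryth and was not tested. Alas1, its counterpart in other cells, was lower than in Multi-Lin. Of 15 members tested, 5 were higher and 0 lower against Meg, 7 and 0 against HSCP-2, and 6 and 1 against Multi-Lin, with median log2 fold changes of 0.50, 0.96 and 0.69. Calls that ended when cells were thinned to 5000 UMIs were those of Urod against Meg, Tmem14c against Multi-Lin, and Cpox against Meg, HSCP-2 and Multi-Lin. Other alternatives lost the calls of Tmem14c against Multi-Lin, and Slc25a38 and Cpox against Meg (in 3 or more other alternatives), and Slc25a38 against HSCP-2 (without the 10% of cells with the most UMIs and with DESeq2).

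Some iron genes were higher in Eryth, and those called lower were no larger a share than over all genes. Glrx5, needed for iron-sulfur clusters, had 278 and 296 CPM in Eryth, against 188 and 177 in Meg, 133 and 123 in HSCP-2 and 153 and 148 in Multi-Lin. The fitted log2 fold changes were 0.75 ± 0.11 against Meg, 1.25 ± 0.11 against HSCP-2 and 0.92 ± 0.10 against Multi-Lin (largest edgeR adjusted p = 2.27e-06). Neither library of the others came up to Eryth. Slc11a2 (an iron importer), Steap3 (an endosomal ferrireductase) and Slc40a1 (ferroportin) were also higher in all 3 comparisons, the last at 13.8 and 21.5 CPM in Eryth, against 0.698 and 4.24 in Meg, 5.97 and 6.3 in HSCP-2 and 4.25 and 4.52 in Multi-Lin. The ferritin genes Fth1 and Ftl1 were lower than in HSCP-2 (log2 fold changes, Fth1 at -0.37 and Ftl1 at -0.20) and higher than in Meg (log2 fold changes, Fth1 at 0.23 and Ftl1 at 0.22; edgeR adjusted p between 1.16e-05 and 0.0133). Tfrc, the transferrin receptor through which maturing red cells take up iron, had 17.2 and 5.88 CPM in Eryth, against 23.7 and 9.32 in Meg, 6.4 and 4.62 in HSCP-2 and 11.7 and 12.9 in Multi-Lin. Its values overlapped between clusters and it did not pass in any comparison (lowest edgeR adjusted p = 0.138). Of 18 iron genes tested, 6 were higher and 0 lower against Meg, 6 and 2 against HSCP-2, and 5 and 1 against Multi-Lin, with median log2 fold changes of 0.10, 0.15 and -0.03. Not past the threshold after thinning to 5000 UMIs per cell were Glrx5 against Meg and Multi-Lin, Ftl1 against HSCP-2, and Fth1 and Steap3 against Meg. Among other alternatives, calls ended for Ftl1 against HSCP-2 and Meg, and Fth1 and Steap3 against Meg (in 3 or more other alternatives), and Slc11a2 against Meg, HSCP-2 and Multi-Lin, and Slc40a1 against HSCP-2 and Multi-Lin (without the 10% of cells with the most UMIs).

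Globin transcripts were few. Hbb-bt, an adult beta globin gene, had 5.17 and 13.7 CPM in Eryth, against 10.5 and 3.39 in Meg, 174 and 119 in HSCP-2 and 17.7 and 17.3 in Multi-Lin. It was lower in Eryth than in HSCP-2 (log2 -3.91 ± 0.32 against HSCP-2, edgeR adjusted p = 9.27e-13) and did not pass against Meg or Multi-Lin. It was detected in 3 of 41 and 5 of 43 Eryth cells, 52 of 256 and 61 of 290 HSCP-2 cells and 30 of 832 and 28 of 1541 Gran-1 cells. Gran-1, which should lack globin, gives the background share, and the exact 95% intervals of the Eryth shares were 1.54% to 19.9% and 3.89% to 25.1%. The other globin genes, Hbb-bs, Hba-a1 and Hba-a2 among them, stayed below the filter. Hbb-bt and Hbb-bs are near copies, as are Hba-a1 and Hba-a2, so counts may be split between them. No Eryth cell had more than 1 globin UMI in the female or 2 in the male library, over the 4 adult genes. In the female and the male library alone the log2 fold change was -4.97 and -3.06 for Hbb-bt against HSCP-2.

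Of 13 late erythroblast genes tested, 5 were higher and 2 lower against Meg, 6 and 2 against HSCP-2, and 9 and 1 against Multi-Lin, with median log2 fold changes of 0.50, 0.58 and 1.6. Gclm, which limits glutathione synthesis, had 367 and 347 CPM in Eryth, against 129.8 and 125 in Meg, 152 and 135 in HSCP-2 and 102 and 94 in Multi-Lin. On the log2 scale Eryth differed by 1.6 ± 0.11 against Meg, 1.4 ± 0.10 against HSCP-2 and 1.85 ± 0.10 against Multi-Lin (largest edgeR adjusted p = 2.26e-14). Both Eryth values lay above every other. Bnip3l, needed to clear mitochondria from red cells, passed against HSCP-2 and Multi-Lin (log2 0.36 ± 0.12 against HSCP-2 and 1.11 ± 0.12 against Multi-Lin, largest edgeR adjusted p = 0.0218). Xpo7, a nuclear export factor, was lower in all 3 comparisons. After thinning to 5000 UMIs per cell, no call remained for Bnip3l against HSCP-2, and Xpo7 against Meg, HSCP-2 and Multi-Lin. Other alternatives ended calls of Bnip3l against HSCP-2 (without the 10% of cells with the most UMIs and with DESeq2), and Xpo7 against Meg (in 3 or more other alternatives).

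The metallothionein genes Mt1 and Mt2 were higher in Eryth in all 3 comparisons, while the medians over a list of antioxidant enzymes were small. Mt2 had 174 and 74.4 CPM in Eryth, against 3.49 and 3.39 in Meg, 1.28 and 0 in HSCP-2 and 0.98 and 1.1 in Multi-Lin. Mt1 had 585 and 380.0 CPM in Eryth, against 105 and 101 in Meg, 52.5 and 34 in HSCP-2 and 119 and 91.5 in Multi-Lin. Log2 fold changes of Mt2 were 5.31 ± 0.38 against Meg, 7.63 ± 0.43 against HSCP-2 and 6.79 ± 0.30 against Multi-Lin (largest edgeR adjusted p = 1.09e-14). Those of Mt1 were 2.35 ± 0.12 against Meg, 3.57 ± 0.13 against HSCP-2 and 2.19 ± 0.10 against Multi-Lin (largest edgeR adjusted p = 5.98e-19). Mt2, unlike Mt1, entered the fit through Eryth alone and had to differ, so its calls support nothing. Both genes were above the values of these 3 clusters in Eryth. Among all clusters, however, Mt1 was higher in Gran-2 (827 and 759 CPM) and Gran-1 (645 and 600), and in male MP (426). The Mt2 values rested in part on 1 female cell with 50706 UMIs, which held 42.4% of all Eryth Mt2 UMIs and 23.6% of the Mt1 UMIs. Prdx6 had 835 and 860.0 CPM in Eryth, against 421 and 441 in Meg, 487 and 482 in HSCP-2 and 485 and 454 in Multi-Lin. Eryth thus differed by log2 fold changes of 1.08 ± 0.08 against Meg, 0.89 ± 0.08 against HSCP-2 and 0.84 ± 0.07 against Multi-Lin (largest edgeR adjusted p = 2.19e-12). Eryth was above each of the others in both libraries. Gpx1, the main glutathione peroxidase, was higher than in Meg and HSCP-2 (log2 0.80 ± 0.07 against Meg and 0.31 ± 0.07 against HSCP-2, largest edgeR adjusted p = 4.22e-04) and lower than in Multi-Lin (log2 -0.27 ± 0.06 against Multi-Lin, edgeR adjusted p = 0.00207). Gpx4 and Prdx1 passed as higher against HSCP-2 (log2 fold changes, Gpx4 at 0.29 and Prdx1 at 0.27; largest edgeR adjusted p = 0.00975). Of 18 antioxidant enzymes tested, 6 were higher and 1 lower against Meg, 9 and 0 against HSCP-2, and 6 and 5 against Multi-Lin, with median log2 fold changes of 0.19, 0.28 and 0.18. Calls that ended when cells were thinned to 5000 UMIs were those of Gpx4 and Prdx1 against HSCP-2. Other alternatives lost the calls of Gpx4 against HSCP-2 (without the 10% of cells with the most UMIs), and Prdx1 against HSCP-2 (without the library term). In the female and the male library alone the log2 fold change was 5.77 and 4.53 for Mt2 against Meg and 7.49 and 6.04 for Mt2 against Multi-Lin. Mt2 had 0 UMIs in male HSCP-2, and the female library alone gave 7.19. Without the 10% of cells with the most UMIs the log2 fold change was 3.9 for Mt2 against Meg, 6.23 for Mt2 against HSCP-2, 6.02 for Mt2 against Multi-Lin, 1.72 for Mt1 against Meg and 2.93 for Mt1 against HSCP-2.

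All 26 megakaryocyte and platelet genes tested were lower in Eryth than in Meg. Such genes lead the Meg cluster, so the count describes the clusters and supports nothing. Pf4 (platelet factor 4) had 8.62 and 1.96 CPM in Eryth, against 5354 and 3596 in Meg, 26.4 and 34.5 in HSCP-2 and 31.5 and 17.1 in Multi-Lin. Its log2 fold changes were -9.57 ± 0.19 against Meg, -2.41 ± 0.50 against HSCP-2 and -2.14 ± 0.49 against Multi-Lin (largest edgeR adjusted p = 0.00115). Both Eryth values lay below every other. It was detected in 3 of 41 and 1 of 43 Eryth cells. Itga2b, the platelet integrin chain CD41, had 32.8 and 25.5 CPM in Eryth, against 309.9 and 241 in Meg, 47.3 and 35.7 in HSCP-2 and 46.1 and 47.7 in Multi-Lin. It was lower than in Meg (log2 -3.13 ± 0.21 against Meg, edgeR adjusted p = 1.34e-15) and not past the threshold against the others. Cavin2, Gp1bb, Rab27b, Serpine2 and Plek had log2 fold changes against Meg of -6.21, -5.59, -4.94, -4.43 and -4.4 (largest edgeR adjusted p = 3.47e-11). Rap1b, Mef2c, Cd9 and Ctla2a kept over 70 CPM in both Eryth sums and were still lower than in Meg (log2 fold changes, Rap1b at -3.25, Mef2c at -2.27, Cd9 at -2.53 and Ctla2a at -1.28). Against HSCP-2, 1 was higher and 9 lower, and against Multi-Lin 3 and 5. The list's medians were -4.27, -0.79 and -0.10 against Meg, HSCP-2 and Multi-Lin. Gp5, the 1 higher member against HSCP-2, was also higher than in Multi-Lin, with F2r and Gp9. Not past the threshold after thinning to 5000 UMIs per cell were Pf4 against HSCP-2 and Multi-Lin, Gp5 against HSCP-2, and Gp9 against Multi-Lin. Among other alternatives, calls ended for Pf4 against HSCP-2 (with all clusters in 1 fit), and Pf4 against Multi-Lin (in 3 or more other alternatives). In the female library alone and the male alone the log2 fold change was -9.15 and -10.77 for Pf4 against Meg, -1.51 and -4.07 for Pf4 against HSCP-2 and -1.85 and -3.17 for Pf4 against Multi-Lin. Without the 10% of cells with the most UMIs the log2 fold change was -1.46 for Pf4 against Multi-Lin.

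Most stem and multipotent genes tested were lower in Eryth than in HSCP-2 and Multi-Lin, and fewer passed as lower against Meg. Of 26 tested, 6 were higher and 11 lower against Meg, 2 and 20 against HSCP-2, and 3 and 19 against Multi-Lin, with median log2 fold changes of -0.81, -1.64 and -1.2. HSCP-2 had the highest summed level of this list among all clusters in both libraries. The count against HSCP-2 thus describes the clusters and supports nothing. Cd34, the progenitor surface antigen, had 17.2 and 15.7 CPM in Eryth, against 37.7 and 59.3 in Meg, 357 and 393 in HSCP-2 and 291 and 261 in Multi-Lin. This gave log2 fold changes of -1.42 ± 0.35 against Meg, -4.42 ± 0.22 against HSCP-2 and -4.07 ± 0.22 against Multi-Lin (largest edgeR adjusted p = 0.00341). Eryth was below each of the others in both libraries. Hlf, a stem cell transcription factor, and the receptor gene Flt3 had 0 UMIs in Eryth and were at least 33.2- and 24.6-fold lower than in HSCP-2. Myl10, chosen by its fold change, also had 0 UMIs, at least 65-fold lower than in HSCP-2, where the female and male levels themselves were 319 and 40.8 CPM. Adgrl4, Ltb and Rgs2 were also far lower than in HSCP-2 (log2 fold changes, Adgrl4 at -4.45, Ltb at -4.43 and Rgs2 at -3.94). Sox4, a factor of immature cells, had 286 and 325 CPM in Eryth, against 103 and 121 in Meg, 792 and 824 in HSCP-2 and 335 and 395 in Multi-Lin. It was higher than in Meg (log2 1.56 ± 0.12 against Meg, edgeR adjusted p = 2.10e-13) and lower than in HSCP-2 (log2 -1.32 ± 0.09 against HSCP-2, edgeR adjusted p = 3.85e-15). Myb, needed in all early progenitors, went the other way and was higher in all 3 comparisons, by 1.45 ± 0.13 against Meg, 0.74 ± 0.11 against HSCP-2 and 0.33 ± 0.10 against Multi-Lin (largest edgeR adjusted p = 0.0147). Ifitm1 had 291 and 972 CPM in Eryth, against 78.9 and 141 in Meg, 1081 and 1339 in HSCP-2 and 463 and 578 in Multi-Lin. Its Eryth libraries lay far apart, and it was higher than in Meg (log2 2.57 ± 0.18 against Meg, edgeR adjusted p = 1.34e-14) and lower than in HSCP-2 (log2 -0.94 ± 0.14 against HSCP-2, edgeR adjusted p = 7.06e-07). Thinning to 5000 UMIs per cell ended the calls of Cd34 against Meg, and Myb against Multi-Lin. Under other alternatives, no call remained for Myb against Multi-Lin (in 3 or more other alternatives), and Ifitm1 against HSCP-2 (without the library term and with DESeq2). In the female and the male library alone the log2 fold change was -5.11 and -3.94 for Ltb against HSCP-2 and -1.79 and -0.40 for Ifitm1 against HSCP-2.

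Granule genes of the neutrophil lineage were present in Eryth at levels close to those of Meg. Mpo (myeloperoxidase) had 811 and 827 CPM in Eryth, against 818 and 796 in Meg, 1068 and 1041 in HSCP-2 and 4380.0 and 4858 in Multi-Lin. Elane (neutrophil elastase) had 723 and 578 CPM in Eryth, against 688 and 622 in Meg, 739.6 and 676 in HSCP-2 and 1805 and 2069 in Multi-Lin. The Elane values of Eryth were below those of Multi-Lin and overlapping with Meg and HSCP-2. Mpo was lower than in Multi-Lin and HSCP-2 (log2 -0.28 ± 0.07 against HSCP-2 and -2.51 ± 0.07 against Multi-Lin, largest edgeR adjusted p = 0.0020) and Elane lower than in Multi-Lin (log2 -1.58 ± 0.08 against Multi-Lin, edgeR adjusted p = 4.06e-19). Of 14 primary granule genes tested, 13 were lower than in Multi-Lin, 7 than in HSCP-2 and 4 than in Meg, and the medians were 0.04, -0.29 and -1.48 against Meg, HSCP-2 and Multi-Lin. The 1 higher member was Plac8 against Meg and Cst7 against HSCP-2. The secondary granule genes of later neutrophils gave no call in any comparison by edgeR, 0 of 11, with medians of -0.02, 0.25 and 0.18. S100a8 had 2449 and 2978 CPM in Eryth, against 2346 and 3496 in Meg, 2719.8 and 2119.7 in HSCP-2 and 2637 and 2017 in Multi-Lin. Its log2 fold changes were -0.01 ± 0.11 against Meg, 0.25 ± 0.11 against HSCP-2 and 0.21 ± 0.11 against Multi-Lin (lowest edgeR adjusted p = 0.105). These values overlapped between clusters, and 1 male Eryth cell with high myeloid antibody counts held 37.6% of the male S100a8 UMIs. Whether free RNA added to the granule transcripts was not tested. At an unadjusted edgeR p under 0.05, 0, 1 and 0 of them differed from Meg, HSCP-2 and Multi-Lin, and DESeq2 called 0, 0 and 0. After thinning to 5000 UMIs per cell, no call remained for Mpo against HSCP-2. Other alternatives ended calls of Mpo against HSCP-2 (with all clusters in 1 fit).

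Genes of eosinophils, basophils and mast cells separated Eryth from Multi-Lin, with 12 of 15 lower and 2 higher. Multi-Lin had the highest summed level of this list among all clusters in both libraries, so that count describes the clusters and supports nothing. Against Meg 3 were higher and 0 lower, and against HSCP-2 2 and 4, with medians of 0.30, -0.76 and -5.3 against Meg, HSCP-2 and Multi-Lin. Mcpt8 and Prss34, basophil and mast cell proteases, had log2 fold changes of -5.6 and -6.41 against Multi-Lin, and Prg2, an eosinophil granule gene, -5.75 (largest edgeR adjusted p = 5.08e-19). Cpa3 (mast cell carboxypeptidase) had 27.6 and 45.1 CPM in Eryth, against 11.9 and 26.3 in Meg, 62.7 and 111 in HSCP-2 and 408 and 647 in Multi-Lin. The 2 higher members were Il1rl1 and Csrp3, a muscle LIM protein gene. Csrp3 had 172 and 221 CPM in Eryth, against 7.68 and 25.4 in Meg, 102 and 88.3 in HSCP-2 and 117 and 133 in Multi-Lin. Log2 fold changes were 3.73 ± 0.24 against Meg, 1.13 ± 0.16 against HSCP-2 and 0.64 ± 0.14 against Multi-Lin (largest edgeR adjusted p = 4.77e-04). Neither library of the others came up to Eryth. Monocyte and dendritic genes gave 1, 9 and 7 lower calls of 15 against Meg, HSCP-2 and Multi-Lin, and 0 higher, with medians of -0.21, -1.43 and -1.37. Fcer1g and Psap were lower than in both HSCP-2 (log2 fold changes, Fcer1g at -0.75 and Psap at -1.52) and Multi-Lin (Fcer1g at -1.47 and Psap at -0.81; largest edgeR adjusted p = 2.16e-04). Of the 5 macrophage genes tested (medians 0.85, -0.41 and 1.48), 2 were higher and 0 lower in each comparison, Apoe and Slc40a1, which erythroid cells also express. C1qa, a defining macrophage gene, had 1.72 and 7.84 CPM in Eryth, against 2.09 and 3.39 in Meg, 5.12 and 7.98 in HSCP-2 and 1.06 and 2.19 in Multi-Lin. The C1qa values of Eryth were overlapping with Meg, HSCP-2 and Multi-Lin. Lymphoid genes were 1, 3 and 3 lower of 4 tested (medians -0.44, -2.72 and -1.7), Cd79b in all 3 comparisons. Calls that ended when cells were thinned to 5000 UMIs were those of Csrp3 and Psap against Multi-Lin, and Cpa3 against Meg. Other alternatives lost the calls of Cd79b against Meg (without the 10% of cells with the most UMIs and with DESeq2), Cd79b against Multi-Lin (without the 10% of cells with the most UMIs), Cpa3 against Meg (without the library term and with all clusters in 1 fit), and Cpa3 against HSCP-2 (without the library term). In the female and the male library alone the log2 fold change was 4.62 and 3.2 for Csrp3 against Meg. Without the 10% of cells with the most UMIs the log2 fold change was 4.38 for Csrp3 against Meg.

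Some S phase genes were lower in Eryth than in Meg and Multi-Lin, and others were higher than in HSCP-2. Of 20 S phase genes, 6 were lower than in Meg and 6 lower than in Multi-Lin, with 0 higher in each, whereas 5 were higher and 0 lower than in HSCP-2. Cdca7, Hells, Mcm5, Pcna, Rrm2 and Tyms were the lower members against both Meg and Multi-Lin. Dut, Mcm2, Mcm7, Rrm1 and Slbp were higher than in HSCP-2. Dut had 398 and 429 CPM in Eryth, against 446 and 507 in Meg, 251 and 283 in HSCP-2 and 419 and 436 in Multi-Lin. It was higher than in HSCP-2 (log2 0.72 ± 0.09 against HSCP-2, edgeR adjusted p = 6.41e-08). Median log2 fold changes of the list were -0.32, 0.34 and -0.32. Of 20 genes of G2 and mitosis, 1 was higher and 3 lower against Meg, 5 and 0 against HSCP-2, and 3 and 0 against Multi-Lin, with median log2 fold changes of -0.39, 0.34 and 0.19. The tubulin gene Tubb4b was higher in all 3 comparisons, at 509 and 742 CPM in Eryth, against 526 and 468 in Meg, 354 and 439.6 in HSCP-2 and 422 and 449.8 in Multi-Lin. In the female library its CPM was below that of Meg, and the TMM-scaled log2 fold change against Meg was 0.083 for female and 0.74 for male cells. Cenpa, a centromeric histone gene, was higher than in HSCP-2 and Multi-Lin (log2 0.81 ± 0.16 against HSCP-2 and 0.81 ± 0.15 against Multi-Lin, largest edgeR adjusted p = 1.90e-04). Of 15 cyclins and inhibitors, 0 were higher and 2 lower against Meg, 2 and 1 against HSCP-2, and 2 and 2 against Multi-Lin. Over all genes tested, 6.17% were higher and 5.8% lower against Meg, 10.7% and 12% against HSCP-2, and 7.22% and 10.1% against Multi-Lin. With so few calls, no result about the cyclin list is drawn. Ccnd3 was lower than in Meg (log2 -0.95 ± 0.14 against Meg, edgeR adjusted p = 1.39e-06) and Ccnd2 higher than in Multi-Lin (log2 0.79 ± 0.11 against Multi-Lin, edgeR adjusted p = 5.74e-07), and Cdk6 did not pass in any comparison. No cycle phase was assigned to single cells. Not past the threshold after thinning to 5000 UMIs per cell were Cenpa against HSCP-2 and Multi-Lin, Hells, Pcna and Tyms against Meg and Multi-Lin, Mcm5 and Tubb4b against Meg, and Mcm2, Mcm7, Rrm1 and Slbp against HSCP-2. Among other alternatives, calls ended for Cenpa against Multi-Lin (without the 10% of cells with the most UMIs), Mcm5, Pcna and Tubb4b against Meg, and Mcm7 against HSCP-2 (in 3 or more other alternatives), Mcm2 against HSCP-2 (without the 10% of cells with the most UMIs and with DESeq2), Hells against Meg and Slbp against HSCP-2 (without the library term and with DESeq2), Tyms against Meg (without the library term), Pcna against Multi-Lin (with DESeq2), and Rrm2 against Meg (with DESeq2 and with all clusters in 1 fit).

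Most ribosome biogenesis genes tested were higher in Eryth than in HSCP-2, but not against Meg or Multi-Lin. Of 22 tested, 4 were higher and 1 lower against Meg, 15 and 1 against HSCP-2, and 8 and 0 against Multi-Lin, with median log2 fold changes of 0.11, 0.72 and 0.19. Npm1 (nucleophosmin) had 2527 and 2441 CPM in Eryth, against 1879 and 1955 in Meg, 1699 and 1681 in HSCP-2 and 2174 and 2154 in Multi-Lin. In the fit it differed by log2 fold changes of 0.48 ± 0.06 against Meg, 0.64 ± 0.06 against HSCP-2 and 0.19 ± 0.06 against Multi-Lin (largest edgeR adjusted p = 0.0148). Eryth was above each of the others in both libraries. Ncl (nucleolin) was higher by 0.27 ± 0.07 against Meg, 0.80 ± 0.07 against HSCP-2 and 0.28 ± 0.07 against Multi-Lin (largest edgeR adjusted p = 0.00834). Fbl (fibrillarin) and Nhp2, parts of small nucleolar particles, were higher than in HSCP-2 by 0.74 ± 0.09 against HSCP-2 (edgeR adjusted p = 2.38e-08) and 0.94 ± 0.10 against HSCP-2 (edgeR adjusted p = 7.86e-10). Myc passed only against Meg, where it was higher, and Mycn was lower than in Meg and HSCP-2. Immediate early genes, induced within minutes of a stimulus or of tissue handling, were lower than in HSCP-2. There, 13 of 15 were lower and the others, the heat shock genes Hspa1a and Hspa1b, higher. These near copies may share reads. In both libraries HSCP-2 had the highest summed level of this list among all clusters. The count of lower genes thus describes the clusters and supports nothing. Fos had 614 and 298 CPM in Eryth, against 403 and 374 in Meg, 1366 and 1024 in HSCP-2 and 648 and 518 in Multi-Lin. Jun had 704 and 533 CPM in Eryth, against 769.9 and 723 in Meg, 1535 and 1404 in HSCP-2 and 717 and 695 in Multi-Lin. Log2 fold changes against HSCP-2 were -1.3 ± 0.10 for Fos and -1.16 ± 0.08 for Jun (largest edgeR adjusted p = 3.80e-13). Against Meg, 3 were higher and 0 lower, and against Multi-Lin 3 and 4, with medians of 0.21, -1.07 and -0.20 against Meg, HSCP-2 and Multi-Lin. Of 13 mitochondrial transcripts, 1, 2 and 0 were higher and 0, 2 and 3 lower against Meg, HSCP-2 and Multi-Lin, and mt-Co1 was lower than in HSCP-2 and Multi-Lin (log2 -0.62 ± 0.06 against HSCP-2 and -0.34 ± 0.06 against Multi-Lin, largest edgeR adjusted p = 9.67e-06). Over all genes tested, 6.17%, 10.7% and 7.22% were higher and 5.8%, 12% and 10.1% lower. With so few calls, no result about the mitochondrial list is drawn. The mitochondrial medians were 0.10, -0.02 and -0.14. Thinning to 5000 UMIs per cell ended the calls of Npm1 against Multi-Lin, Ncl and Myc against Meg, and Hspa1b against HSCP-2. Under other alternatives, no call remained for Npm1 against Multi-Lin and Myc against Meg (in 3 or more other alternatives), Ncl against Meg (without the library term and without the 10% of cells with the most UMIs), and Hspa1a and Hspa1b against HSCP-2 (without the library term).

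**Figure D2:**
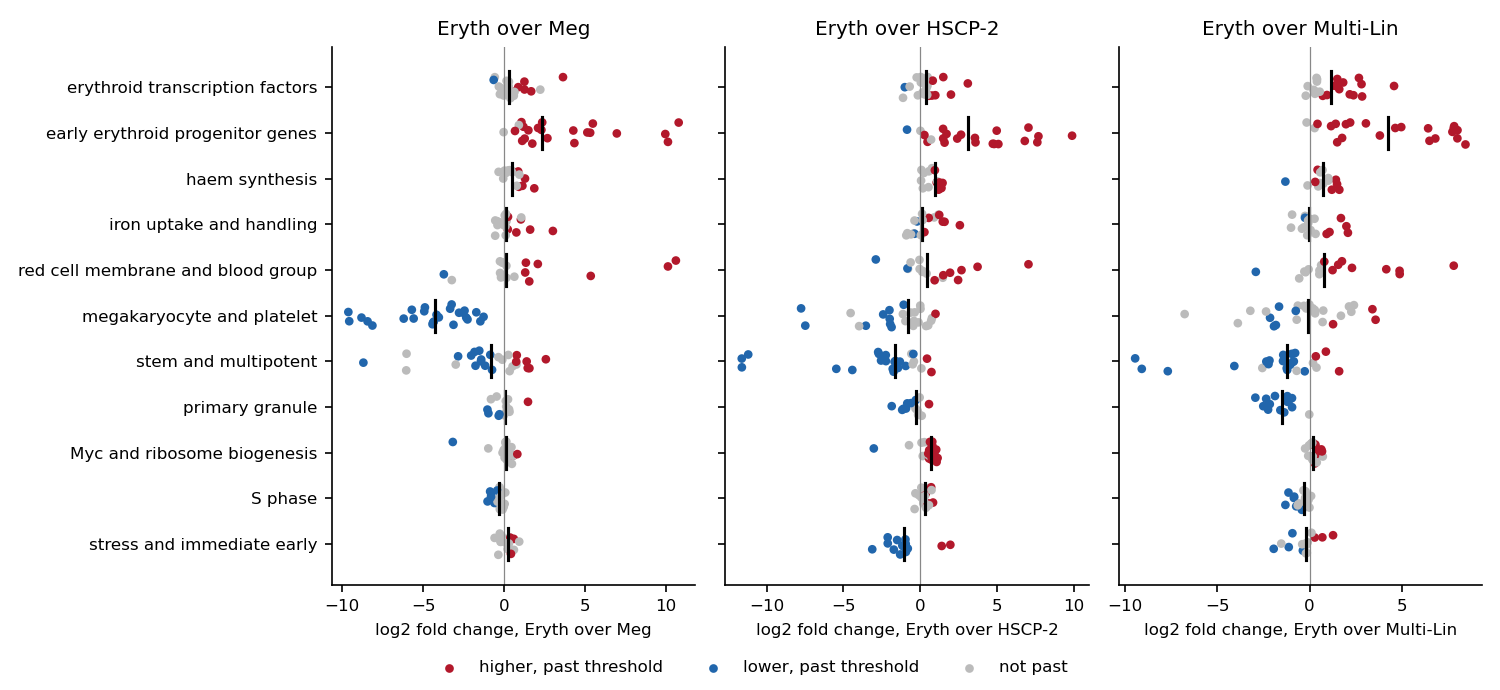
Log2 fold changes (horizontal axes) of Eryth over Meg, HSCP-2 and Multi-Lin for the tested members of 11 gene lists (rows), with 1 point per gene and a black bar at the list's median. The median of early erythroid genes lies right of 0 and that of stem and multipotent genes left of 0 in each comparison, with single genes on the other side, and the megakaryocyte median lies left of 0 against Meg. Fitted values of genes with 0 UMIs in a cluster depend on the prior count.

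Eryth cells varied among themselves. Car1 ranged from 0 to 219 UMIs per female cell (median 19) and from 2 to 195 per male cell (median 17). Klf1 had a median of 2 UMIs per cell in both libraries and a maximum of 17 and 9. Gata1 and Klf1 were detected together in 30 of 41 and 33 of 43 cells, and Epor and Klf1 in 19 and 15. Of a set of 10 blood group and membrane genes chosen after their values were seen (Ermap, Rhd, Kel, Rhag, Cldn13, Sphk1, Slc38a5, Add2, Smim1 and Tspan33), 33 and 30 cells had 1 or more, and 11 and 10 had 3 or more. The cell with most had 8 of them in each library. At these counts, a transcript not detected in a cell is not shown to be absent.

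Across the cells of a library (n = 41 and 43), Car1 CPM ran with some transcripts and against others. Spearman's rho with Car1 was 0.43 and 0.58 for Prdx6, 0.42 and 0.35 for Blvrb and 0.45 and 0.33 for Npm1. It was -0.35 and -0.45 for Ctla2a, -0.47 and -0.31 for Srgn, which encodes a granule proteoglycan, and -0.23 and -0.59 for Apoe. The genes were picked after the values of all well-detected genes were seen. They are only some of those, among 175 listed or named genes, whose rho had the same sign in both libraries. Others had rho of similar size, such as Glrx5 (0.32 and 0.43) and Mef2c (-0.31 and -0.37). Cells of a library share that library and their own depth, and counts are sparse, so these are descriptions.

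**Figure D3:**
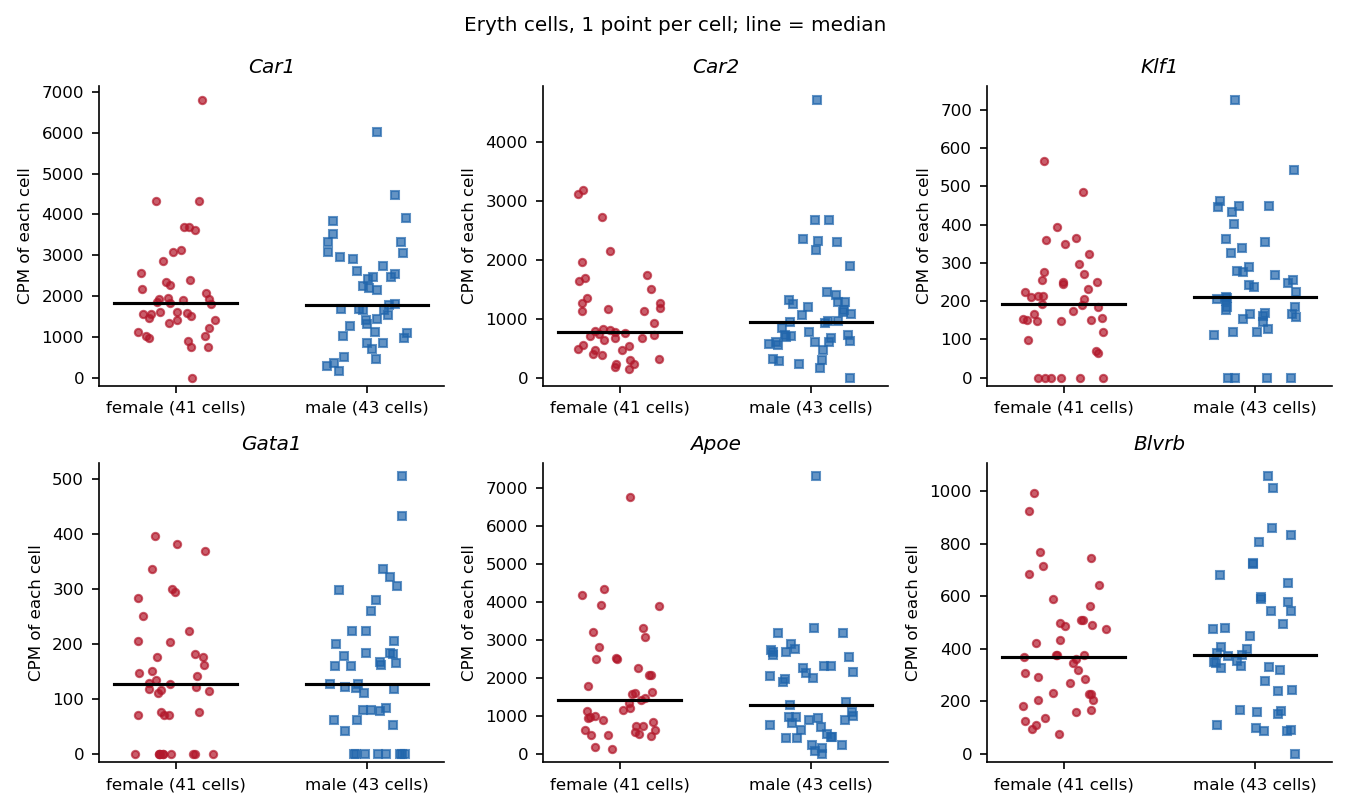
CPM per cell (vertical axes, linear) of 6 genes in the 41 female and 43 male Eryth cells, with 1 point per cell and a line at the median. Female and male cells cover overlapping ranges, and Klf1 and Gata1 are at 0 in some cells of both libraries.

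1 male Eryth cell stood apart by its antibodies, with 2702 CD11b and 11392 Ly-6G counts, and was the only Eryth cell above 1000 for either. CD11b and Ly-6G mark myeloid cells and neutrophils. The cell held 18639 UMIs, among them 571 of S100a8, 41 of Car1, 20 of Car2 and 0 of Klf1. It held 37.6% of the S100a8 and 33.7% of the S100a9 UMIs of male Eryth, and 3.53% of the Car1 UMIs. Without it, the log2 fold change of S100a8 was -0.34 against Meg, -0.06 against HSCP-2 and -0.10 against Multi-Lin, so the last 2 changed sign. Whether the cell is a doublet was not tested, and the 1000-count limit was set after the counts were seen.

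The antibody tags, measured apart from the transcripts, set the cluster apart by low CD11b. Median counts per cell were 79 and 49 in Eryth, against 113 and 85 in Meg, 202 and 129 in HSCP-2 and 139 and 87 in Multi-Lin. These were the lowest counts of all 17 clusters in both libraries. As the deposited log share, though, the Eryth medians (-3.00 and -2.92, natural log) lay above those of cMoP, Mono and MP in both libraries and of MDP in the male one. As log2 ratios of medians, Eryth lay at -0.51 and -0.79 against Meg, -1.35 and -1.4 against HSCP-2, and -0.82 and -0.83 against Multi-Lin. CD117, the product of Kit, had medians of 445 and 224 in Eryth, against 293 and 240 in Meg, 369.5 and 263 in HSCP-2 and 357 and 206 in Multi-Lin. Female Eryth was above each of these clusters for CD117, and male Eryth below Meg and HSCP-2. Ly-6C had medians of 852 and 623 in Eryth, against 881 and 705 in Meg, 860 and 701 in HSCP-2 and 919 and 672 in Multi-Lin, close throughout. Ly-6G had medians of 102 and 88 in Eryth, against 139 and 150 in Meg, 138 and 141 in HSCP-2 and 149 and 132 in Multi-Lin, with log2 ratios of -0.44 and -0.77 against Meg. The deposited log share of a cell's 4 antibody counts and centred log counts kept CD11b lower in Eryth against all 3 clusters, but turned the sign of the mean Ly-6C difference in all 3 comparisons, and centred log counts that of Ly-6G against HSCP-2. With 2 libraries an exact test cannot go below p = 0.5, so none was run. Median total antibody counts were 1611 and 1017 per Eryth cell, against 1717 and 1329 in HSCP-2. In Meg they were 1520.5 and 1338, and in Multi-Lin 1652 and 1157.5. Of all 17 clusters, Eryth had the lowest total in the male library but not in the female one. Across Eryth cells, rho of CD117 counts with Kit CPM was -0.08 and -0.16 (n = 41 and 43).

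**Figure D4:**
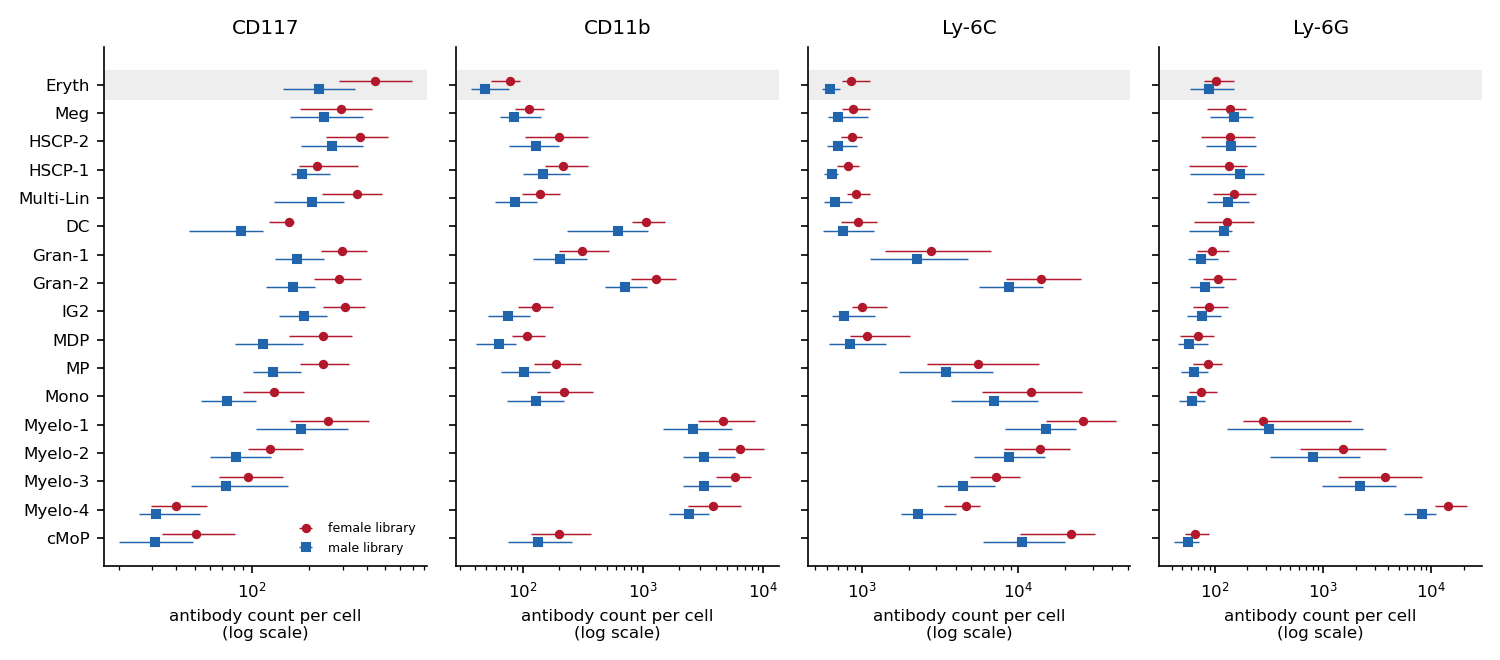
Antibody counts per cell (horizontal axes, log scale) in the 17 clusters (rows, Eryth shaded at the top), with a point at the median and a bar over the interquartile range for each library. Eryth has the lowest CD11b medians of all clusters and CD117 medians among the highest.

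Female and male Eryth were compared by their sums with exact Poisson intervals, which cover counting error only, since each sex was 1 library. Of 123 named genes, 13 had intervals that did not meet, 8 higher in female and 5 higher in male Eryth. Fos had 614 CPM (95% interval 552 to 681) in female Eryth and 298 CPM (252 to 349) in male Eryth. The genes Ier2, Jun, Ifngr1, Mt1, Mt2, Elane and mt-Co1 were the others higher in female Eryth. Ifitm1 had 291 CPM (95% interval 249 to 339) in female Eryth and 972 CPM (888 to 1061) in male Eryth. S100a8, Tubb4b, Ncl and Ftl1 were the others higher in male Eryth. An alternative chosen after seeing the data left out, for each of the 13 genes, the cell with most of its UMIs in the higher library, and 8 differences kept intervals apart in the same direction. S100a8 turned, with 2449 CPM in female Eryth, against 1929 CPM in male Eryth without 1 cell that held 37.6% of its male UMIs. Without 1 female cell, Mt2 was at 79.4 CPM in female and 74.4 CPM in male Eryth and Mt1 at 403 and 380.0 CPM, and the intervals met, as they did for Ncl and Ftl1 without 1 male cell each. Car1, Car2, Klf1, Gata1 and Epor had intervals that met. Sex and library cannot be told apart here.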

How the data were processed

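Transcripts were measured in cells of 1 female and 1 male library by the 10x Genomics 3' assay, together with 4 antibody tags. Cell Ranger 2.1.0 and the mouse build mm10 are named in the submitters' processing notes. The authors deposited raw UMI counts per gene ID and cell and raw antibody counts per cell, with no normalization, and a table that gives each cell a cluster name. The labels do not state the clustering method, the filter on cells or any removal of doublets, and no doublet caller was run. A further table of antibody values, on a natural log scale, came from the authors. With 1 added to each antibody count and to each cell's total of its 4 antibodies, all 44528 of these values were the natural log of the ratio within 1e-08, so they are log shares and are not centred. The ending of the cell names gave the library. Of 28692 gene IDs, 28339 had a symbol in the table used, and the rest held 0.0230% of UMIs.

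UMIs were summed per cluster and library, since cells are not replicates. The female library held 91448433 and the male 124967351 UMIs. The 8 sums of Eryth, Meg, HSCP-2 and Multi-Lin were fitted together with edgeR 4.0.16 in R 4.3.3 (TMM scaling, filterByExpr, quasi-likelihood test, Benjamini-Hochberg adjustment over 9413 genes), with the library as a block because the clusters of 1 library share their cells' source, which left 3 residual degrees of freedom. DESeq2 1.42.0 was an alternative, beside other scaling, filters, samples in the fit, depths and cells left out. Python 3.11.15 was used for the rest. The code was tested on simulated counts for the comparison with Meg, where it recovered 13.4%, 49.3% and 83.3% of genes changed by 0.5, 1 and 2 on the log2 scale and made 3 false calls among 9213 unchanged genes. The simulation gave all genes 1 common spread, unchanged genes 1 level in all clusters, and no library effect. It checks the code, and does not show how many calls in these data are false. Shares have exact binomial intervals and sums exact Poisson intervals at 95%, for counting error only. Where a cluster had 0 UMIs of a gene, a fold was given as a bound against a floor of 3 counts over both libraries.

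Named were 12 genes chosen by hand, the up to 4 members of each list with the highest CPM in Eryth, the 6 largest called fold changes each way per comparison at a mean of 50 CPM or more with the same sign in both libraries, the 12 leading genes by their ratio to the next cluster, and list members against the run of their list where there were 5 or fewer. Other list members named for their call or their count of 0 UMIs, such as Ermap, Rhd, Kel, Sphk1, Bcl2l1, Cish, Alas2, Cpox, Steap3 and Gp5, were chosen after their values were seen, and so were the background cluster Gran-1 and the minimum counts used for single cells. A few of the genes so chosen are not reported here. The members and the lists were chosen with earlier results of these data known.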

Additional observations from a re-analysis of the deposited data

Results flagged for a closer look

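The CD117 antibody and several genes went in opposite directions in the 2 libraries, and none of these differences between libraries was tested. For CD117, the log2 ratio of median counts of Eryth over Meg was 0.60 for female and -0.10 for male cells, and over HSCP-2 it was 0.27 and -0.23. For genes, the values are log2 ratios of summed counts, female library first. Ifitm1 against Multi-Lin had -0.65 and 0.70, while Fos against Meg had 0.74 and -0.26. The transferrin receptor gene Tfrc against Multi-Lin had 0.58 and -1.18, at few UMIs. Hbb-bt against Meg had -0.89 and 2.09, also at few UMIs. C1qa had -0.15 and 1.28 against Meg and -1.47 and 0.039 against HSCP-2. S100a8 had 0.19 and -0.16 against Meg, -0.048 and 0.56 against HSCP-2, and -0.090 and 0.52 against Multi-Lin. Elane had 0.20 and -0.031 against Meg and 0.070 and -0.16 against HSCP-2. Cd47 against HSCP-2 (0.032 and -0.10) and Jun against Meg (6.0e-04 and -0.37) did the same at smaller values. No gene comparison in this paragraph passed the threshold. With 1 library per sex, sex and library cannot be told apart.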

How the results depend on the processing

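Of 277 gene comparisons reported, 248 passed the threshold, and 147 of these passed it in every alternative that gave a test. The other 101 were lost in 1 or more, and 0 of the 248 changed sign. Thinning each cell to 5000 UMIs left 198 genes higher and 201 lower in Eryth than in Meg, 337 and 470 than in HSCP-2, and 231 and 487 than in Multi-Lin. It ended 80 reported calls and moved 34 of 213 log2 fold changes by over 1.5-fold. With DESeq2, the counts of lower genes were 325 against Meg, 668 against HSCP-2 and 591 against Multi-Lin. Without the 10% of cells with the most UMIs, 640 genes were higher than in HSCP-2. Without the cell with most UMIs of each gene, 8 of 13 female and male differences in Eryth kept their intervals apart. Leaving out the female or the male library moved 13 and 17 of 220 fold changes by over 1.5-fold and gives no test. Clusters of 1 library are paired by that library. Without this replicate block, 453 genes were higher and 453 lower than in Meg, 898 and 1024 than in HSCP-2, and 577 and 845 than in Multi-Lin. The cause of these changes was not tested, beside the fewer UMIs or cells that thinning and leaving out cells leave.

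Changes of sign were found for comparisons that had not passed. Against Meg, S100a8 turned to 0.012 in a fit of the 2 clusters alone, 0.061 after thinning and 0.51 without the 10% of cells with the most UMIs, and Jun to 0.11 after thinning and 0.065 without those cells. Against HSCP-2, after thinning, Cd47 turned to 0.051, Elane to 0.066 and Itga2b to 0.067, and in the fit of all clusters Cd47 turned to 0.029 and Elane to 0.031. Jun against Multi-Lin turned to 0.050 without the 10% of cells with the most UMIs. Without the 1 male cell with high myeloid antibody counts, an alternative chosen after seeing the data, S100a8 turned to -0.061 against HSCP-2 and -0.10 against Multi-Lin.

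The antibody differences depended on the scale. In centred log counts the mean log2 difference of CD117 was 0.38 against HSCP-2 and 0.41 against Multi-Lin. CD11b stayed lower in Eryth, at -0.39 against Meg in centred log counts, at -0.95 against HSCP-2 as the deposited log share and -0.73 centred, and at -0.60 and -0.48 against Multi-Lin. Ly-6C became higher in Eryth, at 0.018 and 0.17 against Meg, 0.16 and 0.37 against HSCP-2, and 0.0079 and 0.14 against Multi-Lin, as log share and centred. Ly-6G was -0.15 against Meg when centred, -0.28 and 0.040 against HSCP-2, and -0.40 and -0.16 against Multi-Lin. All 12 leading genes were highest in Eryth in each alternative. Eryth had 84 cells in all, and the calls that ended on thinning were not confined to genes of few UMIs. Npm1, with 1465 and 1246 UMIs in female and male Eryth, lost its call against Multi-Lin.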
